A study of Homo sapiens with 4 samples.

Results

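After 48 h of 5 μM HgCl2, 57 abundant coding transcripts of H1299 cells had higher counts relative to the other abundant transcripts than in the solvent control. They were chosen from the raw counts of the same samples. A transcript belonged to the set when its annotated class was protein-coding, its mean over the 4 columns of counts was at least 200, and its centred log2 ratio was at least 0.8. The centred log2 ratio is the log2 of the mean HgCl2 count over the mean EtOH count, minus the median of that quantity over all 2712 transcripts with a mean of at least 200. Symbols of the mitochondrial genome, of cytosolic and mitochondrial ribosomal proteins, of the kinesin, centromere, heat shock, DnaJ, zinc transporter and ZNF families, and HMGA2, ERRFI1, ASPH and BBS10 were left out. Of 227368 transcripts listed, 2180 were coding with a mean of at least 200, and 66 of these (3.03%) reached 0.8. Leaving out 9 by symbol gave the 57 members, of 57 genes and 2.79% of the 2045 coding transcripts with other symbols. Because the rule used the contrast between HgCl2 and EtOH, the ratios of the members describe how they were chosen and are no test of it.

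H1299 is a long-established cell line from a human non-small-cell carcinoma of the lung. The series holds poly-A RNA from H1299 cells given 5 μM HgCl2 for 48 h, and from control cells given the solvent, 0.6% EtOH. The HgCl2 stock was diluted in EtOH, and the treatment text of the labels gives 5 μM HgCl2 for the control samples too, whereas the study's methods give them the solvent. Each group has 2 columns, labelled as replicates 1 and 2. The total counts per column ranged from 4720978 to 5053120. Between the columns of a group the differences stayed below the sampling noise. Their variance was 0.505 times that of counting noise in EtOH and 0.516 times in HgCl2, and over the 57 members it was 0.455 and 0.573 times. Each group was therefore counted as 1 sample, no test between the conditions was made, and the 95% intervals given below (exact Clopper-Pearson, from the mean counts) cover counting error only. In bulk RNA, a change in the share of cells that hold a transcript and a change in its amount per cell cannot be told apart.

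Inorganic mercury binds the thiol groups of proteins and of glutathione, and metal-exposed cells are known to induce metallothioneins and genes of the antioxidant response. The amount of an mRNA depends on its transcription, its processing and its decay, and counts of steady-state RNA do not separate these steps. The members include genes known from signalling of growth factors and of mechanical strain, such as DUSP6, JUN, RHOB and CCN2, together with enzymes of the secretory pathway, lipid metabolism and RNA processing. Of the 4 mesenchymal markers, VIM had 501 to 628 counts per column, FN1 had 9 and 13 in EtOH and 15 and 17 in HgCl2, CDH2 had 13 and 13 against 1 and 2, and ZEB1 had 2 to 3. The epithelial markers KRT19, EPCAM and CDH1 were at 0, as were all 4 markers of blood cells. The 6 epithelial markers summed to 91 and 96 counts in EtOH and to 25 and 37 in HgCl2, of which KRT8 made up 53 and 58 against 4 and 4. Transcripts of the mitochondrial genome took 24.8% of all counts in EtOH and 17.9% in HgCl2. The part of these shifts in the members' ratios was not tested.

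The promoters of 6 members are shown because these transcripts carry the results below: TRHDE has the largest ratio, CCN2 and RHOB the highest counts, DUSP6 and EIF5 belong to the gene lists described further on, and EIF5 and RBM18 share a motif. Each run holds the 250 bases before the gene's start in RefSeq on GRCh38.p14, written 5′ to 3′ on the strand of the gene, and the annotated start of each of these 6 members is that position. Capitals mark, on both strands, the letters TGACNNNGC (antioxidant response element), TGANTCA (the site of AP-1, the factor that JUN forms with FOS proteins), TGACGTC (cyclic AMP response element), TATAAA (a core promoter box), GGGCGG (SP1 site) and CACGTG (E-box). The regions are chr12:72272120-72272369 (plus strand) for TRHDE, chr12:89352502-89352751 (minus strand) for DUSP6, chr14:103333987-103334236 (plus strand) for EIF5, chr9:122264841-122265090 (minus strand) for RBM18, chr2:20446824-20447073 (plus strand) for RHOB and chr6:131951373-131951622 (minus strand) for CCN2.
TRHDE: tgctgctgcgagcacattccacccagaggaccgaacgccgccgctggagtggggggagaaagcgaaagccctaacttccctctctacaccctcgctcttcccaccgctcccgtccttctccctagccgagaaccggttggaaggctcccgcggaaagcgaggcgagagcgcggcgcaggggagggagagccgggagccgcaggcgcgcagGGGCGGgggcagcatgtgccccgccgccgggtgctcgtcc
DUSP6: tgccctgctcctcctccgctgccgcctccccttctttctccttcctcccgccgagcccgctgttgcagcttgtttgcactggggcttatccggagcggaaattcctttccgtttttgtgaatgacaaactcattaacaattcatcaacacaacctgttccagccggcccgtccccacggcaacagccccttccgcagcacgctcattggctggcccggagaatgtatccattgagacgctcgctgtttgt
EIF5: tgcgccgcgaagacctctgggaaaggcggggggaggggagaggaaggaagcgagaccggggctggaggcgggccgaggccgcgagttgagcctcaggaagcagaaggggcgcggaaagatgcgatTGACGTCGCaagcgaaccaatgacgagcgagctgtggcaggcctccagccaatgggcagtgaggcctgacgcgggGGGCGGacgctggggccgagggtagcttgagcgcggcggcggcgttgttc
RBM18: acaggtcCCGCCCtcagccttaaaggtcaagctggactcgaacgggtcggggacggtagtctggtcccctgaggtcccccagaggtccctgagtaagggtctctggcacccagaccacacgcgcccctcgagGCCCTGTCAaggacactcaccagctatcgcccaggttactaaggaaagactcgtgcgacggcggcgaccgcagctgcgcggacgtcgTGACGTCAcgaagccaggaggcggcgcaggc
RHOB: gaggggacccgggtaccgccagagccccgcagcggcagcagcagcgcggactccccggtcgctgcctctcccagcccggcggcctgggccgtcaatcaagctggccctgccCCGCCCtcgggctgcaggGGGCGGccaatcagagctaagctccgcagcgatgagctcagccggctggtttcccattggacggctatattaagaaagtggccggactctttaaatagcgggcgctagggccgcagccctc
CCN2: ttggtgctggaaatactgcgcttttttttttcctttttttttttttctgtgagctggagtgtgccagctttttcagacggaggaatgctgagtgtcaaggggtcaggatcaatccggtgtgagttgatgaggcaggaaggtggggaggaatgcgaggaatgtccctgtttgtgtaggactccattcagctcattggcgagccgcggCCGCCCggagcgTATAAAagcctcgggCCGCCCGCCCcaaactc
None of the marked letters was found in the DUSP6 run. The other 5 runs hold the SP1 letters, the CCN2 run also holds the core promoter box, and the EIF5 and RBM18 runs hold the letters of the antioxidant and the cyclic AMP response elements, which overlap in EIF5.

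Across the 57 members the centred log2 ratio ranged from 0.80 to 2.72 with a median of 0.91, a fold of 1.75 to 6.59 with a median of 1.88. Most members lay close to the threshold: 38 had a ratio under 1, 16 lay between 1 and 2, and 3 (TRHDE, TM4SF1 and NETO1) at 2 or more. Of all coding transcripts, 26 (1.19%) reached 1 and 3 (0.138%) reached 2. In all 57 the HgCl2 columns lay above both EtOH columns, as they did for 50.0% of the 2180 coding transcripts, while both lay below in 41.5%. Within a group the columns of a member differed by at most 1.21-fold in EtOH and 1.17-fold in HgCl2. Together the members took 27401 counts in EtOH and 56304 in HgCl2, or 0.542% and 1.19% of the totals. On the same scale 147 coding transcripts (6.74%) lay at -0.8 or lower, and the median coding transcript lay at -0.01.

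**Figure D1:**
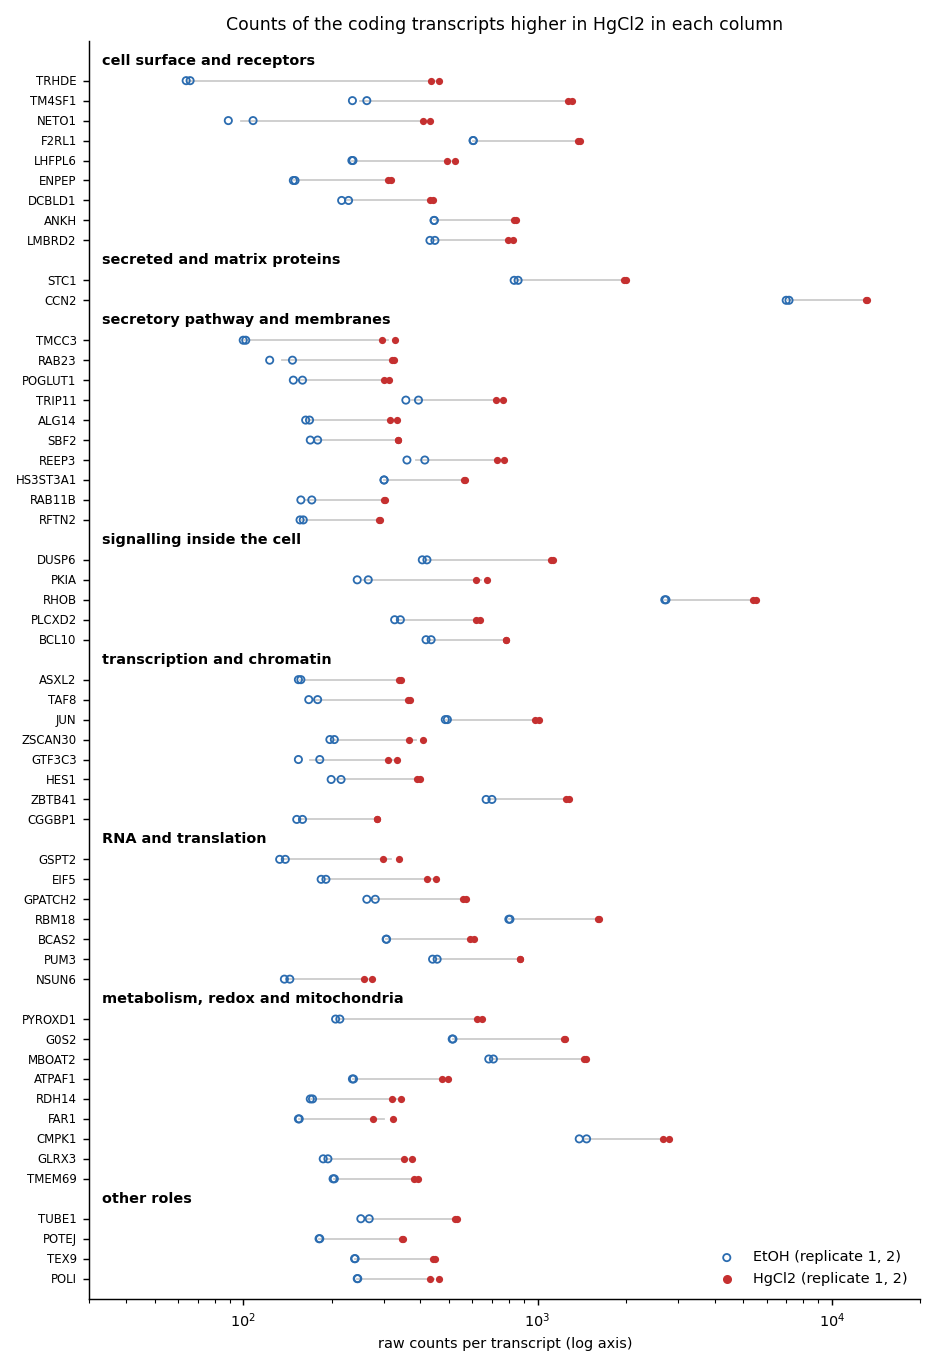
Raw counts of 54 of the 57 members in the 4 columns, on a log axis, grouped by role and ordered by ratio within a role. Open blue circles are the EtOH columns, filled red circles the HgCl2 columns, and the grey line joins the group means. The circles of a group nearly coincide for most members, and HgCl2 lies to the right in all 54, from TRHDE (64 and 66 against 463 and 434 counts) to CCN2 (6999 and 7154 against 13030 and 13160).

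Proteins of the cell surface held the 3 largest ratios. This group has 9 members with a median ratio of 1.05 (0.82 to 2.72). TRHDE (ENST00000261180, chromosome 12, 72272370 to 72670758, plus strand) encodes the membrane peptidase that degrades thyrotropin-releasing hormone. It was counted 64 and 66 times in EtOH and 463 and 434 times in HgCl2, a ratio of 2.72 (2.34 to 3.12). TM4SF1 (ENST00000472441, chromosome 3, 149369023 to 149375712, minus strand), a tetraspanin-like protein known as a tumour cell surface antigen, had 235 and 263 counts in EtOH and 1274 and 1305 in HgCl2, a ratio of 2.31 (2.11 to 2.51). This TM4SF1 transcript is not the canonical one of its gene and has a coding length of 354 bases. NETO1 (ENST00000327305, chromosome 18, 72743756 to 72867987, minus strand), an auxiliary subunit of glutamate receptors, had 108 and 89 counts against 408 and 432, a ratio of 2.03 (1.71 to 2.37). TRHDE and NETO1 reached the minimum mean of 200 through their HgCl2 columns, with EtOH means of 65 and 98.5. The same held for every other member with an EtOH mean under 200, among them ENPEP, TMCC3, RAB23, GSPT2, NSUN6 and EIF5. TM4SF1 and TRHDE differ in abundance as well as in ratio, since the deposited FPKM, which divide by length, were 1.07 and 9.23 for TRHDE and 14.6 and 94.2 for TM4SF1 in EtOH and HgCl2.

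F2RL1, a receptor that is switched on when proteases cleave it, was the most abundant member of the surface group by HgCl2 count. It had 604 and 605 counts in EtOH and 1378 and 1398 in HgCl2, a ratio of 1.13 (1.0 to 1.28). The remaining surface proteins lay lower: LHFPL6 at 1.05, ENPEP (an aminopeptidase that cleaves angiotensin) at 1.01, DCBLD1 at 0.91, ANKH (an exporter of ATP and citrate whose loss lowers extracellular pyrophosphate) at 0.85, and LMBRD2 at 0.82. TRHDE and ENPEP belong to the same family of zinc aminopeptidases and their ratios were 2.72 and 1.01, with intervals (2.34 to 3.12 and 0.72 to 1.30) that do not meet.

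Secreted and matrix proteins were encoded by 3 members, all among the 10 with the highest mean counts. CCN2, also called connective tissue growth factor, is a matricellular protein and a classical target of the YAP and TEAD transcription factors. It had 6999 and 7154 counts in EtOH and 13030 and 13160 in HgCl2, the highest counts of any member, and a ratio of 0.82 (0.78 to 0.86). STC1, the secreted glycoprotein stanniocalcin, had 859 and 833 against 1998 and 1971 counts, a ratio of 1.16 (1.05 to 1.28). The interval of STC1 lies above that of CCN2. Per length, CCN2 was also the highest of the members, at 551.0 FPKM in EtOH and 1274.0 in HgCl2, followed by RHOB at 209.1 and 524.6 and G0S2 at 106.9 and 320.9.

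Signalling proteins inside the cell made up 5 members, from 0.81 to 1.37. DUSP6 (ENST00000279488, chromosome 12, 89347235 to 89352501, minus strand) is the phosphatase that switches off ERK in the cytoplasm and is itself a target of ERK signalling. It had 406 and 421 counts in EtOH and 1127 and 1115 in HgCl2, a ratio of 1.37 (1.21 to 1.54). PKIA, the inhibitor peptide of protein kinase A, had 266 and 244 against 616 and 671 counts, a ratio of 1.27 (1.06 to 1.49). RHOB, a small GTPase of endosomes and the actin skeleton that is known as an early response gene, had 2732 and 2707 against 5506 and 5412 counts, a ratio of 0.94 (0.87 to 1.01). The order of DUSP6 and PKIA is within their intervals, whereas that of RHOB lies below both. PLCXD2 lay at 0.84 and BCL10, an adaptor of NF-κB signalling, at 0.81.

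In the secretory pathway and its membranes there were 10 members with a median of 0.90. TMCC3, a protein of the endoplasmic reticulum, had 102 and 100 counts in EtOH and 327 and 296 in HgCl2, a ratio of 1.56 (1.23 to 1.90), and RAB23, a GTPase that restrains hedgehog signalling, had 123 and 147 against 321 and 325, a ratio of 1.19 (0.90 to 1.49). The other 8 lay between 0.81 and 0.93. POGLUT1 (0.93) adds glucose to Notch and similar proteins, ALG14 (0.91) acts in the assembly of N-glycans, TRIP11 (0.92) is a golgin that tethers vesicles at the Golgi, and HS3ST3A1 (0.84) sulfates heparan sulfate. SBF2 (0.89) is a myotubularin-related regulator of RAB proteins, REEP3 (0.88) shapes the endoplasmic reticulum, RAB11B (0.81) acts in recycling endosomes, and RFTN2 (0.81) is a lipid raft protein.

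Regulators of transcription and chromatin were 10 members with a median of 0.88. JUN, the AP-1 subunit, had 486 and 494 counts in EtOH and 979 and 1010 in HgCl2, a ratio of 0.96 (0.80 to 1.11). ZBTB41 had 669 and 700 against 1281 and 1253 counts, a ratio of 0.82 (0.69 to 0.96). These intervals overlap. ASXL2 (1.07) belongs to Polycomb-related complexes, TAF8 (1.01) to the general factor TFIID, and GTF3C3 (0.87) to TFIIIC of RNA polymerase III. HES1 (0.86) is the repressor that Notch signalling induces, ZSCAN30 lay at 0.88, and CGGBP1 (0.81) binds CGG repeats.

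In RNA processing and translation, 7 members had a median of 0.94. GSPT2, an X-linked copy of the release factor that ends translation, had 139 and 133 counts in EtOH and 298 and 338 in HgCl2, a ratio of 1.16 (0.87 to 1.46). EIF5, which triggers GTP hydrolysis when a start codon is found, had 184 and 191 against 452 and 421 counts, a ratio of 1.15 (0.90 to 1.40). RBM18, an RNA recognition motif protein, had 806 and 799 against 1599 and 1617 counts, a ratio of 0.94 (0.81 to 1.06). These intervals overlap one another. GPATCH2 lay at 0.99, BCAS2 (a core protein of the spliceosome) at 0.90, PUM3 (a Pumilio-like protein of the nucleolus) at 0.90 and NSUN6 (an RNA cytosine methyltransferase) at 0.85.

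Enzymes of metabolism and redox balance and mitochondrial proteins made up 9 members, with a median of 0.90. PYROXD1, a flavin-dependent oxidoreductase, had 213 and 206 counts in EtOH and 621 and 648 in HgCl2, a ratio of 1.53 (1.30 to 1.76). G0S2, which inhibits the lipase that breaks down stored triglycerides, had 513 and 516 against 1241 and 1231 counts, a ratio of 1.20 (1.05 to 1.35). MBOAT2, an acyltransferase of membrane phospholipids, had 683 and 708 against 1441 and 1456 counts, a ratio of 0.99 (0.86 to 1.12). The interval of PYROXD1 lies above that of MBOAT2, and that of G0S2 overlaps both. CMPK1, which phosphorylates pyrimidine nucleotides, had 1386 and 1468 against 2659 and 2792 counts, a ratio of 0.87 (0.78 to 0.96). ATPAF1 (0.97) helps to assemble the ATP synthase, RDH14 (0.90) is a retinol dehydrogenase, FAR1 (0.89) makes fatty alcohols for ether lipids, GLRX3 (0.87) is a glutaredoxin that carries iron-sulfur clusters, and TMEM69 lay at 0.86. The last 4 members were TUBE1 (epsilon-tubulin, 0.96), POTEJ (0.87), TEX9 (0.83) and POLI (a translesion DNA polymerase, 0.80).

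**Figure D2:**
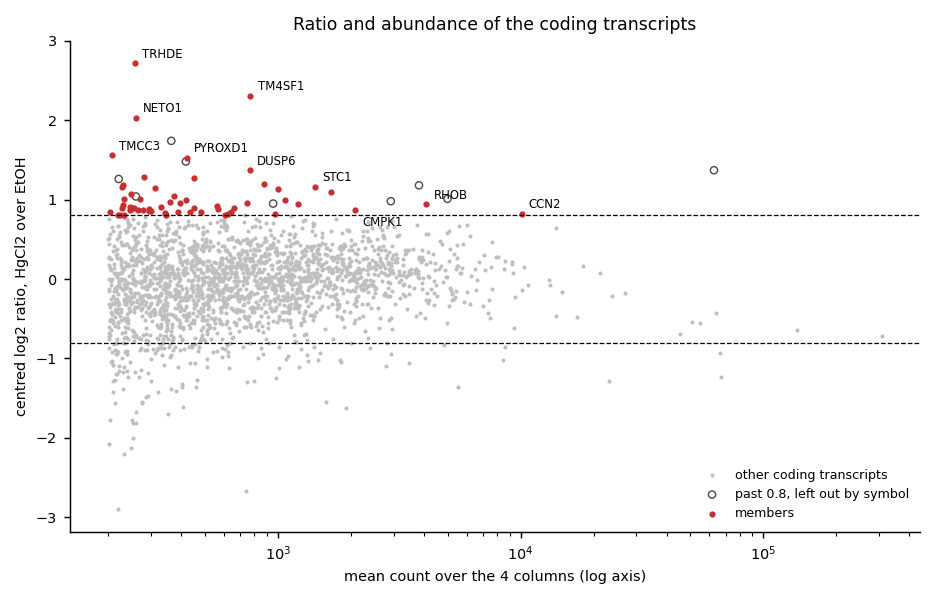
Centred log2 ratio against the mean count over the 4 columns (log axis) for the 2180 coding transcripts. Red points are the 57 members, open circles the 9 transcripts past 0.8 left out by symbol, and dashed lines mark 0.8 and -0.8. Members thin out to the right, and 7 of them have a mean of at least 1000 counts, against 746 of all 2180.

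The threshold falls inside a continuous spread of ratios. The members just inside it were POLI at 0.80 (0.58 to 1.04), with 245 and 244 counts in EtOH and 431 and 462 in HgCl2, and CGGBP1 and BCL10, both at 0.81. Just outside it were NECTIN3, a cell adhesion protein whose ratio rounds to 0.80 (0.64 to 0.95), and FOXD1 and INPP5A, both at 0.79. The lower bound of the interval reached 0.8 in 19 members and lay under it, but above 0, in the other 38. Among the coding transcripts under 0.8 whose symbols the rule kept, 64 had an interval that holds 0.8. With each column left out in turn, 43 of the 57 members met the rule every time. The other 14 included TMCC3, whose mean count of 206.2 is close to the minimum, and FAR1, REEP3, ZSCAN30, GTF3C3, NSUN6, ZBTB41, LMBRD2, RAB11B, RFTN2, BCL10, CGGBP1 and POLI, which have ratios of 0.89 or less.

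The split of higher and lower transcripts depends on the scale. Of the coding transcripts past 0.8 in either direction, 31.0% were higher after centring (66 higher and 147 lower). With TMM normalization in place of the centring, 69.2% were higher (162 higher and 72 lower), because TMM places every ratio 0.21 higher on the log2 scale. The ratios of the 57 members, chosen at 0.8 or more, stay positive on both scales by construction. A member's ratio is a change relative to the median abundant transcript.

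Of 24 gene lists, 4 held a member, and 51 members were in none of the lists. Pooled over the lists, 6 of 213 coding transcripts with a mean of at least 200 lay at 0.8 or more and 19 at -0.8 or less. The higher share is close to the 2.79% of the 2045 coding transcripts whose symbols the rule kept, so the lists together were not richer in members. The lists hold none of the symbols that the rule left out, so HMGA2, a classical let-7 target (1.37 and 1.74 for its transcripts past 0.8), and ERRFI1, a feedback inhibitor of EGFR (1.01), are not in the counts below. Among genes of MAPK feedback and the immediate early response, 2 of 10 coding transcripts with a mean of at least 200 were at 0.8 or more (DUSP6 and JUN), 0 were at -0.8 or less, and the median was 0.26, against 3.03%, 6.74% and -0.01 over all coding transcripts. The other 8 transcripts of that list did not move as a block: DUSP5 had 1035 and 1062 counts in EtOH and 1762 and 1721 in HgCl2 (0.67), EGR1 had 1487 and 1466 against 2393 and 2367 (0.62), FOS had 614 and 605 against 536 and 533 (-0.25), and IER5 lay at -0.74. Among YAP and TEAD targets, 1 of 8 was higher (CCN2) and 0 lower, with a median of 0.19. CCN1, the close relative of CCN2, had 4161 and 4200 counts in EtOH and 6965 and 6985 in HgCl2, a ratio of 0.67, while AXL lay at -0.26 and CRIM1 at -0.47. RAB proteins and related small GTPases with their regulators had 2 higher of 18 (RAB23 and RHOB), 0 lower and a median of -0.06, with RHOA at -0.43 beside RHOB at 0.94. That list is incomplete, as it holds RAB11A (-0.21) but not RAB11B, which is a member at 0.81. In the list of translation initiation and elongation factors, 1 of 12 was higher (EIF5), 0 were lower and the median was 0.10.

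The stress lists that mercury is known to engage held no member, but few of their genes had a coding transcript with a mean of 200. Those that did were 7 of 27 NRF2 targets, 1 of 11 metal response genes and 8 of 24 of the integrated stress response. They were 5 of 21 in the endoplasmic reticulum list and 6 of 32 in apoptosis. Over all coding transcripts 3.03% lay at 0.8 or more and 6.74% at -0.8 or less. With so few transcripts, an absence of members does not show whether a pathway responded. NRF2 targets had 0 higher and 1 lower of 7 with a median ratio of 0.00, from FTL at -1.19 to GCLM at 0.37. In the metal response list a single transcript reached a mean of 200, that of the metal-sensing factor MTF1 at -0.40, and no metallothionein transcript did. The integrated stress response had 0 higher and 1 lower of 8 (median -0.07), and endoplasmic reticulum chaperones with the unfolded protein response 0 higher and 1 lower of 5 (median 0.02). Apoptosis genes had 0 past the threshold in either direction of 6 (median -0.02), autophagy and lysosome 0 of 5 (median 0.08), and glycolysis and the hypoxia response 1 lower of 2 (median -0.75). Genes of G1/S and DNA replication had 4 lower of 10 and of G2/M 3 lower of 7, both with a median of -0.60 and 0 higher.

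Lists of trafficking, adhesion and signalling next to the members' roles held no member either. As 3.03% of all coding transcripts reached 0.8, little can be read from an absence in lists of this size. Vesicle coats had 0 higher and 1 lower of 16 (median -0.09), actin and adhesion 0 and 3 of 8 (-0.12), extracellular matrix and integrins 0 and 0 of 5 (0.16), TGF-beta and BMP signalling 0 and 1 of 4 (0.00), and receptor tyrosine kinases 0 and 0 of 11 (0.08). Ubiquitin conjugation had 0 and 0 of 19 (0.17), chromatin regulators 0 and 0 of 12 (-0.18), nuclear transport 0 and 1 of 13 (-0.23), and small RNA and mRNA decay 0 and 1 of 17 (-0.02). For let-7 targets the counts were 0 and 0 of 6 (0.01), and for cholesterol and fatty acid synthesis 0 and 1 of 6 (-0.47).

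The counts are per transcript, so the other transcripts of the same genes were examined as well. The 57 genes list 270 other transcripts, of which 118 had a count and 11, of 9 genes, had a mean of at least 30. Of these 11, 5 lay at 0.8 or more, 2 at -0.8 or less and 9 above 0, and their median was 0.69. Without EtOH replicate 2, or without HgCl2 replicate 2, these numbers were 2 at 0.8 or more and 1 at -0.8 or less. Over all listed transcripts at that minimum, 15.3% lay at 0.8 or more and 17.4% at -0.8 or less. Among those with a mean of 30 to under 200, as for 9 of the 11, the shares were 21.9% and 23.7%. All 5 of the higher ones were retained introns, that is, transcripts annotated as keeping an intron. Retained introns as a class had 32.1% of 1061 at 0.8 or more and a median of 0.38.

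GLRX3 and GPATCH2 each had a second coding transcript that went the opposite way. The GLRX3 member ENST00000331244 had 187 and 194 counts in EtOH and 351 and 376 in HgCl2, a ratio of 0.87 (0.62 to 1.13). Its other coding transcript ENST00000368644 had 75 and 88 counts against 23 and 32, a ratio of -1.63 (-2.29 to -0.98), and the sum over the gene lay at 0.46. The member's share of the GLRX3 counts was 69.5% in EtOH and 92.0% in HgCl2. For GPATCH2, the member ENST00000366934 had 281 and 263 counts against 559 and 571, a ratio of 0.99 (0.78 to 1.20), whereas ENST00000366935 had 56 and 64 against 37 and 32, a ratio of -0.86 (-1.54 to -0.25), with a gene sum of 0.75. In both genes the higher and the lower transcript have intervals on opposite sides of 0. The members of FAR1 and GTF3C3 are not the canonical transcripts of their genes and have coding lengths of 420 and 486 bases. Other coding transcripts of these genes, ENST00000354817 and ENST00000263956, lay at 0.49 (-0.10 to 1.08) and 0.46 (-0.04 to 0.95), with intervals that hold 0. The gene sums of FAR1 and GTF3C3 were 0.81 and 0.56.

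In TUBE1 most counts of the gene were on a retained intron. The member ENST00000368662 had 251 and 268 counts in EtOH and 532 and 526 in HgCl2 and held 34.7% and 38.1% of the gene's counts. The retained intron ENST00000604689 had 394 and 388 against 704 and 723 counts, a ratio of 0.80 (0.62 to 0.98), which overlaps the member's 0.96 (0.74 to 1.18). In PYROXD1 a retained intron of few counts, 13 and 9 against 63 and 41, had a ratio of 2.18 (1.22 to 3.26). For 47 of the 57 members the transcript held at least 90% of its gene's counts in EtOH, and the gene sum reached 0.8 for 46.

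**Figure D3:**
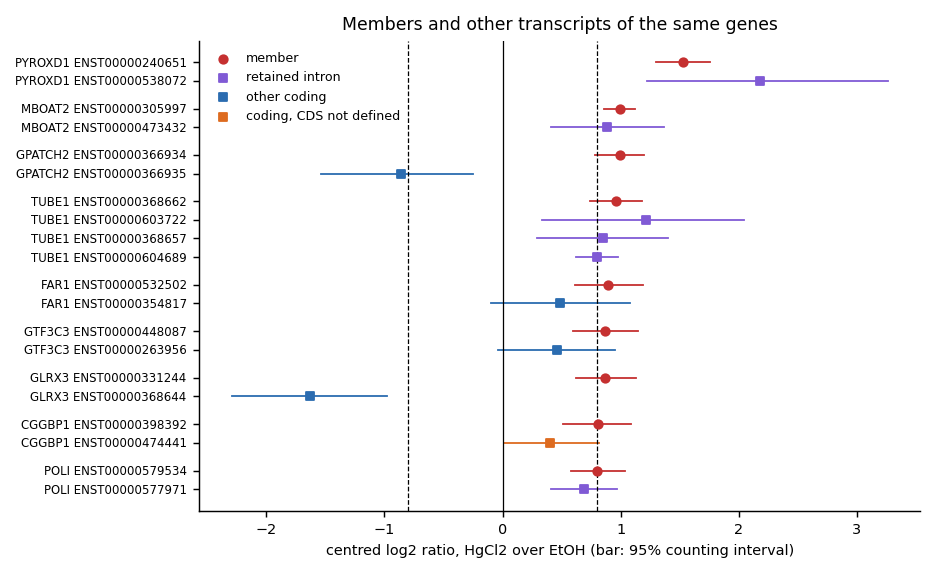
Centred log2 ratio with its 95% counting interval for the members (red circles) and the 11 other transcripts that reached a mean of 30 (squares, coloured by class) in 9 genes. Dashed lines mark 0.8 and -0.8. The coding transcripts ENST00000366935 of GPATCH2 (-0.86) and ENST00000368644 of GLRX3 (-1.63) lie left of 0, and the 6 retained introns lie right of it.

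Near-identical copies and overlapping genes leave some members uncertain. GSPT1, the widely expressed relative of GSPT2, had 949 and 974 counts in EtOH and 960 and 958 in HgCl2 (-0.07), beside 1.16 for GSPT2. RAB11A had 1190 and 1228 against 1072 and 1121 counts (-0.21), beside 0.81 for RAB11B. In the POTE family, which shares long stretches of sequence, POTEF lay at 0.35, POTEE at 0.59 and POTEI at -0.25 beside POTEJ at 0.87, and reads could be split among them. EIF5, BCAS2, FAR1 and GLRX3 have named pseudogenes, of which the one with most counts was GLRX3P2, with 39 and 34 counts in EtOH and 16 and 23 in HgCl2. Exons of 18 members overlap another gene, 5 of them on the same strand and 13 on the opposite strand, among them TRHDE, RAB23, CCN2, BCL10 and RAB11B with a partner on the opposite strand. Whether the counting used the strand is not given in the sources used here. In the later annotation used for names, TEX9 has 0 bases and ATPAF1 27 bases that no other listed transcript covers, and 55 members have a run of at least 150 such bases.

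In structure, the differences between the members and other abundant coding transcripts were small beside the spread among the members. Their median length was 3868 bases (quartiles 2367 and 5874), against 4599 over the tested coding transcripts. Their median coding length was 1131 bases against 1346, and their median 3′ UTR 2270 bases against 2712. Their median number of exons was 6 against 8, and 4 members (7.02%, against 4.82%) have a single exon. GC content was close, with medians of 41.4% and 41.6%, and 49 members (86.0%, against 91.2%) are the canonical transcript of their gene. The members were less abundant, with a median mean count of 360 against 634 and a median EtOH count of 236 against 624. A high ratio goes with a low EtOH count by construction, and 38 of the 57 lay in the lowest of 5 equal parts of the coding transcripts by EtOH count.

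Over all 2180 coding transcripts the ratio declined with GC content, from a median of 0.13 in the lowest quintile to -0.21 in the highest (Spearman rho -0.26 across transcripts, which share libraries and depth and are not independent). The members did not follow that order, with 16, 9, 8, 10 and 14 of them from the lowest to the highest GC quintile. RAB11B, at 63.1% GC, stands at the upper end and FAR1, at 31.3%, at the lower. By 3′ UTR length the quintiles held 15, 13, 7, 13 and 9 members. Transcripts of 1 to 4 exons, 509 in all, held 23 members (4.52%).

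**Figure D4:**
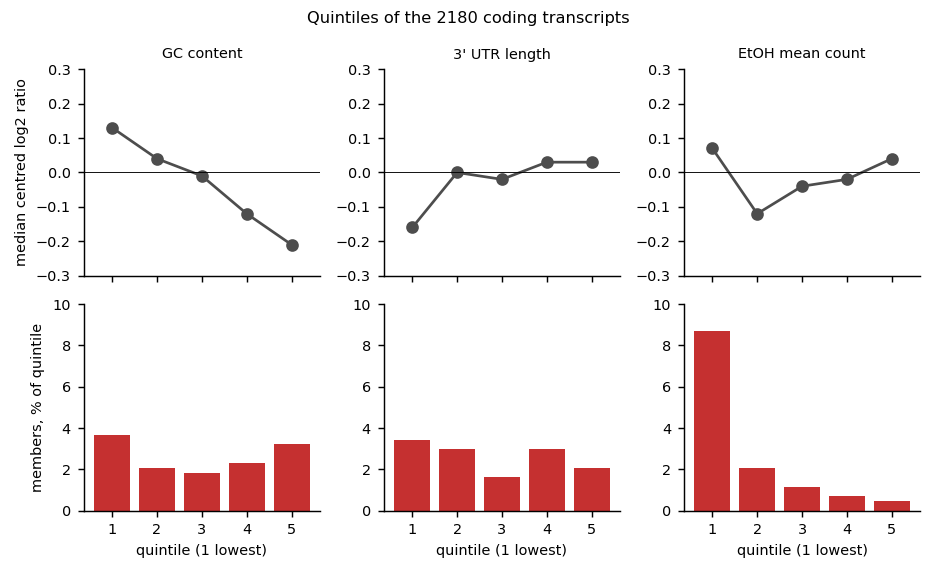
Quintiles of the 2180 coding transcripts by GC content, 3′ UTR length and EtOH mean count. The upper row gives the median centred log2 ratio of all coding transcripts in the quintile and the lower row the percentage of the quintile that are members. The median falls from 0.13 to -0.21 over the GC quintiles while members stay between 1.83% and 3.67%, and the lowest EtOH quintile holds 8.72% members.

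Members lay on 18 chromosomes. The shares below are of all coding transcripts with a mean of at least 200, left-out symbols included. Chromosome 1 held 11 of 231 coding transcripts (4.76%) and chromosome 18 held 3 of 44 (6.82%: NETO1, ZSCAN30 and POLI), while chromosomes 7, 16, 20, 21 and 22 held none of 84, 56, 47, 12 and 21. Of the 6 largest ratios, 4 were on chromosome 12 (TRHDE, TMCC3, PYROXD1 and DUSP6), and these were all of its members. Of the 146 coding transcripts of chromosome 12, 7 reached 0.8 before symbols were left out and 4 (2.74%) after, and the median ratio of its coding transcripts was 0.10.

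Short motifs of 3′ UTRs were about as frequent in the members as in other abundant coding transcripts. On the sense strand, the AU-rich letters ATTTA occurred in 55 of the 57 members and 2058 of 2166 tested transcripts, and TATTTAT in 57.9% and 55.4%. Pumilio letters TGTANAT occurred in 78.9% and 77.8%, the poly-A signal AATAAA in 91.2% and 95.4%, and CTACCTC, which pairs with the let-7 seed, in 12.3% and 16.3% (7 members, among them PKIA, ENPEP and RBM18). Promoter motifs were counted over 300 bases, with 250 of them before the start. Of the 57 member genes, 45 were matched in RefSeq and set beside 1761 tested transcripts and 27305 promoters in all. The metal response element core TGCNCNC was found in 46.7% of members, 62.9% of tested transcripts and 55.2% of all promoters, and GGGCGG in 62.2%, 73.5% and 44.6%. The letters TGACNNNGC occurred in 17.8%, 16.2% and 13.6%, among the members in EIF5, ENPEP, G0S2, RBM18, RDH14, RFTN2, TM4SF1 and TUBE1. For TM4SF1 the member's annotated start lies 1937 bases from the RefSeq start, and for PYROXD1 it lies at -260 bases, so the bases searched belong to another start. The same may hold for other members that are not the canonical transcript of their gene, such as GTF3C3. For TGACGTC the shares were 8.89%, 5.11% and 3.63% (EIF5, HS3ST3A1, PUM3 and RBM18), for TATAAA 8.89%, 5.51% and 12% (CCN2, ENPEP, GTF3C3 and SBF2), and for CACGTG 11.1%, 11.3% and 7.43%. No member promoter held TGANTCA, which 3.80% of tested transcripts and 7.76% of all promoters did. With 45 promoters a share of 8.89% rests on 4 genes, and a match of letters is not a site.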

How the data were processed

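RNA-seq of H1299 cells treated with HgCl2 or EtOH was used from tables of the whole series. Per the labels and the study's methods, the authors trimmed reads with Trim Galore, used STAR 2.5.4b for alignment to GRCh38 (Ensembl 98), and took a count table per transcript from Rsubread. The deposited counts are raw. The deposited FPKM are the authors' length-scaled values from DESeq2 1.26.0. Columns were assigned by the group and replicate number in their names.

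Ratios, exact Clopper-Pearson intervals and motif counts were computed in Python 3.11.15 (numpy 2.4.6, pandas 2.3.3, scipy 1.17.1, matplotlib 3.10.9). The fits of edgeR 4.0.16 and DESeq2 1.42.0 (R 4.3.3) served as alternatives and gave ratios only. Classes and coordinates were those of GENCODE 44 (GRCh38), which postdates the authors' release, with 223558 of 227368 identifiers found (99.8% of the counts).

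The members, the 24 gene lists, the motifs and the alternatives were chosen with earlier results of these data known, and the grouping by role and the promoters shown with the members' values seen. Named with full values were the 15 largest ratios, the 10 highest mean counts, members of the lists and the transcripts next to the threshold, and other members by role with their ratio. The total counts per column, 4720978 to 5053120, set the precision. On simulated counts of 2712 transcripts, 200 of 200 changed 3-fold passed the threshold, 0 unchanged ones did, and 95.6% of the intervals held the true ratio. The simulation held counting noise only, and 3-fold lies well above the threshold (1.74-fold) and the median member (1.88-fold). It therefore does not show how transcripts near the threshold fare, and it holds no biological spread. Some items that this naming rule covers are not reported here, and protein sequences were not used here.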

Additional observations from a re-analysis of the deposited data

How the results depend on the processing

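Under the alternatives, 659 of the 798 recomputed ratios of the members stayed within the member's counting interval. All 798 kept their sign, but the choice of members at 0.8 or more largely fixed that outcome. The changes of scale only raise every ratio, and the deposited FPKM and the centred edgeR fits return nearly the same ratios. These numbers are therefore no check of the members. The number of members was 57 with the rule as given, and 53 to 57 with any 1 column left out. It was 131 with a minimum mean count of 100, 15 with 500, and 3087 with no minimum and 1 count added. TMM in place of the centring gave 142 and DESeq2 size factors 163, and the DESeq2 fit also 163. Coding transcripts at -0.8 or less numbered 147, and 144 to 152 with a column left out. They numbered 257 with a minimum of 100, 52 with 500, 2666 with no minimum, 72 with TMM, and 62 with DESeq2 size factors and with the DESeq2 fit. The shift of the whole scale, 0.21 for TMM and 0.25 for DESeq2 size factors (log2), sets these last differences. The replicate numbers did not pair the columns (r = 0.034 for same numbers). The crossed value, -0.034, is its negative by construction and adds no second check. The edgeR fit gave 142 members (left-out symbols not counted) with or without the replicate block. In both cases the edgeR fit gave 72 coding transcripts at -0.8 or less (all symbols). After centring, an alternative chosen after the data were seen, it gave 57 members and 147 such lower transcripts with or without the block. Other transcripts of the member genes were 5 higher and 2 lower. They were 9 and 8 with a minimum of 10 counts, 1 and 0 with 100, and with TMM 1 was lower. With a column left out they were 2 to 4 higher and 1 to 2 lower, and the lowest values, 2 higher and 1 lower, came without EtOH replicate 2 and without HgCl2 replicate 2. Transcripts of the gene lists were 6 higher and 19 lower of 213. They were 3 and 8 of 159 with a minimum of 500, and 14 and 10 of 213 with TMM. The median 3′ UTR of the members was 1598 bases with a minimum of 100 counts. With 1 sample a group, biological spread could not be estimated, and counts near 200 leave intervals wider than the distance of most members from the threshold.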
